A study of Mus musculus with 7 samples.

Results

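Antigen presentation on MHC class II was followed through 9 genes of the deposited count table, which lists 51789 genes. They were the class II chain genes H2-Aa, H2-Ab1 and H2-Eb1, the loading factors H2-DMa, H2-DMb1 and Cd74, the class II activator Ciita, the costimulatory gene Cd86 and Ly75, which encodes the endocytic receptor DEC-205. Members were chosen by symbol for their role, except that Ly75 was added because its levels did not overlap between genotypes. The difference in Ly75 between genotypes is therefore a description and was not tested, and the other 8 were also chosen with earlier results of these libraries known. The libraries were made from mouse cells labelled granulocytes, the leukocyte class of neutrophils, eosinophils and basophils. Of the 7 libraries, 3 were knockout (KO) and 4 wild type (WT) for Alox15, a lipoxygenase that oxidises polyunsaturated fatty acids, and all 7 carried the label untreated. The sources used here do not give the strain, age, sex, tissue of origin, sorting or deleted part of Alox15, and nothing said that the replicates came from separate animals, so p-values measure only the spread between these libraries.

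MHC class II molecules carry peptides from the endosomes to the cell surface, where CD4 T cells read them. Each is a pair of an α and a β chain. The invariant chain, which Cd74 encodes, binds this pair, and H2-DM later exchanges the invariant chain remnant for a peptide. Ciita is the coactivator that switches on the whole group of genes at a shared promoter module, the W/S, X and Y boxes. Dendritic cells, B cells and macrophages are the usual carriers of class II, while resting neutrophils have little of it.

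The KO libraries held 5250060, 3228292 and 5348256 counts and the WT libraries 3606843, 5657192, 4981010 and 3907353. Alox15 had 1 count in KO 1 and 0 in each other library, so it does not check the genotype labels. Over WT the 0 counts allow up to 0.165 CPM (tag counts scaled to library size), taking 3 counts as the limit of a count of 0. The descriptions of KO 2 and KO 3 carried another letter (A) than those of the other 5 libraries (Y), and Xist, the RNA of the inactive X chromosome, stood at 382 and 102 CPM in KO 2 and KO 3, against 1.75 CPM in KO 1 and 0.896 to 6.11 CPM in WT. The letter A and high Xist occurred together and in KO libraries alone. The 10 granulocyte markers were counted in all 7 libraries, but their summed level was 2095 CPM in KO 3 and 2809 CPM in WT 2, against 12106 to 29680 CPM in the other 5. Levels below are CPM scaled by trimmed mean of M values (TMM) library sizes. Tags came from the 3′ end of transcripts, so a level counts tags and was not divided by transcript length. In such mixed RNA, fewer cells of a type and less RNA per cell cannot be told apart.

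The promoters of H2-Aa and H2-Eb1 are shown because these genes encode an α and a β chain and carry the letters of the Y box, in the Eb1 promoter together with those of the X box. Each line gives the 120 bases before the RefSeq start, 5′ to 3′ on the gene's own strand (GRCm38.p6). Capitals mark AGNAAC, the core of the X box, and GATTGG, the Y box, on either strand.
H2-Aa, chr17:34287824-34287943, minus strand: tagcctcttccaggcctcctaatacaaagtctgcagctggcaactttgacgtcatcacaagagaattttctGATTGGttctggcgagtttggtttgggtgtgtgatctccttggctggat
H2-Eb1, chr17:34305747-34305866, plus strand: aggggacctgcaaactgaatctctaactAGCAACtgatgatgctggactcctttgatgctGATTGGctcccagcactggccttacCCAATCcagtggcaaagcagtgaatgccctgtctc

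RefSeq promoters were at hand for 5 of the 9 genes, namely H2-Aa, H2-Eb1, H2-DMa, H2-DMb1 and Ly75, with 6 promoters among them. H2-Ab1, Cd74, Ciita and Cd86 had no entry. In the 250 bases before the start, the ordered pair AGNAAC then GATTGG, with 10 to 40 bases between and on 1 strand, was found in H2-Eb1 (26 bases between) and H2-DMb1 (27 bases between). The pair was in 0.475% of the 32851 promoters of the table, AGNAAC alone in 42.3% and GATTGG alone in 14.6%, and the motifs cannot overlap on a strand, though on opposite strands they can share an end base. H2-Aa held GATTGG beginning 49 bases before its start, Ly75 beginning 78 bases before and 1 of the 2 H2-DMa promoters beginning 199 bases before, each without AGNAAC. Outside the 9 genes, the class II genes H2-Oa, H2-Ob and H2-Eb2 also held the pair, with 27, 24 and 26 bases between, while H2-DMb2 held GATTGG without AGNAAC. A match describes letters and not a bound site.

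Transcripts of the class II chains were abundant in all 7 libraries and highest in KO 1. H2-Aa, the α chain of the A molecule (chromosome 17, 34282744 to 34287823, minus strand), stood at 643, 227 and 446 CPM in KO 1, 2 and 3, against 293, 78.6, 246 and 427 CPM in WT 1 to 4. KO 2 lay among the WT libraries and KO 3 just above the highest of them. H2-Ab1, the β chain of the same molecule (chromosome 17, 34257689 to 34269419, plus strand), stood at 549.8, 152 and 121 CPM in the KO libraries and 201, 44.0, 179 and 217 CPM in WT. KO 2 and KO 3 were lower than 3 of the 4 WT libraries, and KO 1 was far above all of them. H2-Eb1, the β chain of the E molecule (chromosome 17, 34305867 to 34316674, plus strand), stood at 700.4, 191 and 191 CPM in KO and 307, 82.5, 213 and 323 CPM in WT. The partner α chain is annotated in the reference strain as the polymorphic pseudogene H2-Ea-ps, which had 0 of 31979006 counts over all 7 libraries, allowing up to 0.0938 CPM.

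The means were 439 ± 208 CPM in KO (SD, n = 3) and 261 ± 144 CPM in WT (SD, n = 4) for H2-Aa, 274 ± 239 and 160.3 ± 79.1 CPM in KO and WT for H2-Ab1, and 361 ± 294 and 231 ± 110.4 CPM in KO and WT for H2-Eb1. In each case the distance between the means was smaller than the KO standard deviation. The log2 fold changes of KO over WT were 0.75 ± 0.54, 0.78 ± 0.65 and 0.64 ± 0.59 (SE), each with an adjusted p of 0.99995 in edgeR's quasi-likelihood test with Benjamini-Hochberg adjustment over all genes.

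**Figure D1:**
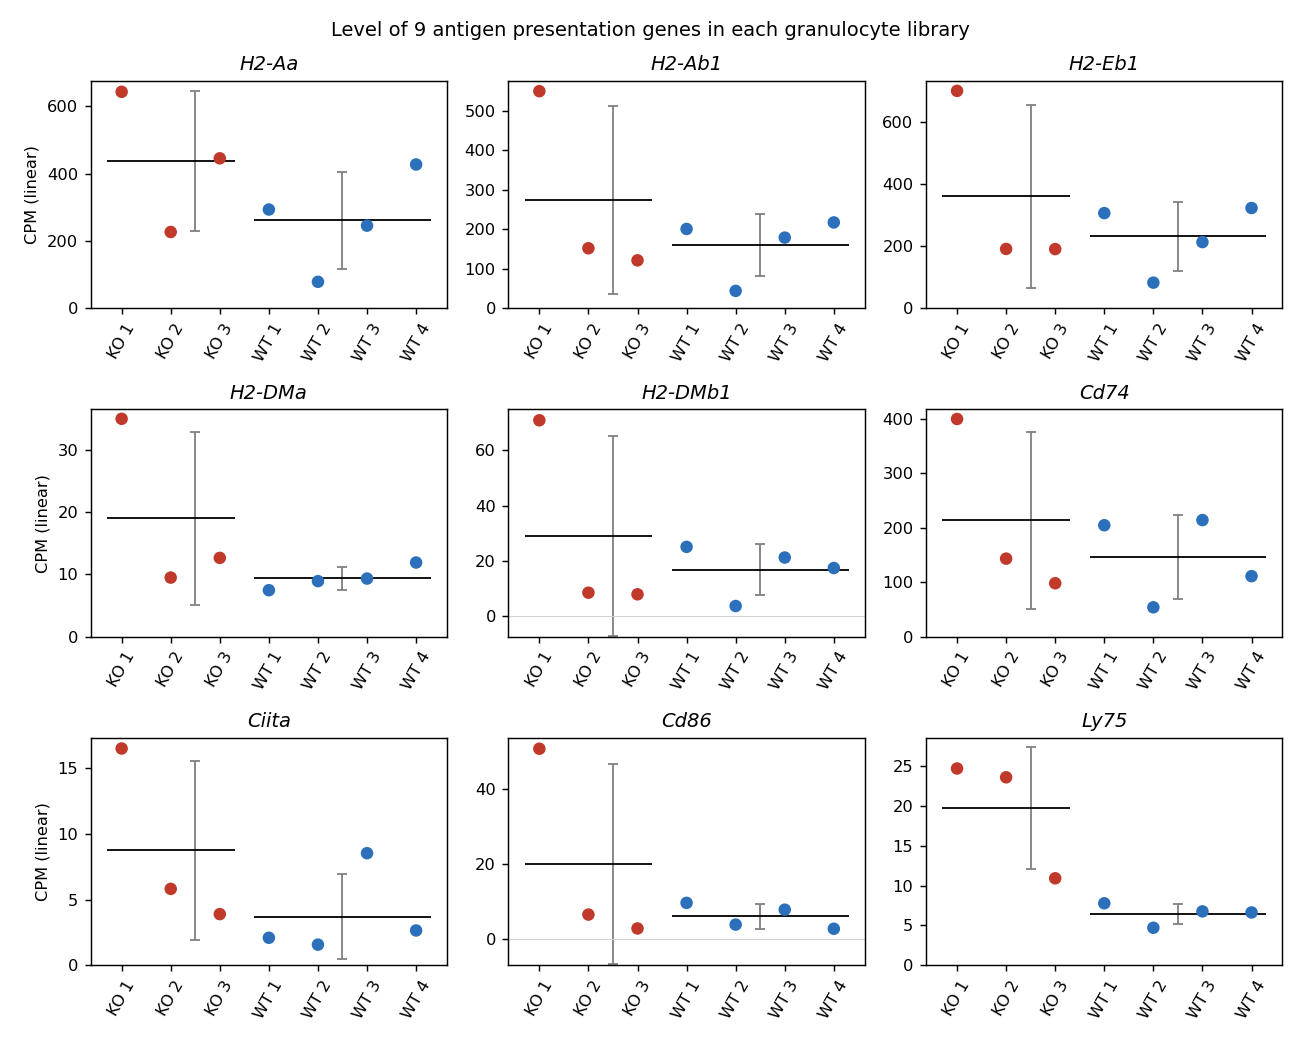
Level in CPM (linear axes) of each of the 9 genes in the 3 KO libraries (red) and the 4 WT libraries (blue). Horizontal lines are group means and grey bars the SD. KO 1 is the highest point in all 9 panels, and the KO points lie wholly above the WT points in the Ly75 panel alone.

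The genes that load class II had the same leading library. Cd74, the invariant chain (chromosome 18, 60803848 to 60812652, plus strand), stood at 399.7, 143 and 98.2 CPM in KO 1 to 3, against 205, 54.0, 214 and 111 CPM in WT. H2-DMa, the α chain of the peptide exchange factor (chromosome 17, 34119541 to 34139101, plus strand), stood at 34.99, 9.50 and 12.7 CPM in KO and 7.47, 8.93, 9.34 and 11.9 CPM in WT. KO 2 was within the narrow WT range and KO 3 only slightly above it. H2-DMb1, the β chain of that factor (chromosome 17, 34153072 to 34160230, plus strand), stood at 70.8, 8.58 and 7.98 CPM in KO, against 25.1, 3.76, 21.3 and 17.5 CPM in WT. Here KO 2 and KO 3 lay under all WT libraries except WT 2.

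Log2 fold changes were 0.55 ± 0.59 for Cd74, 1.02 ± 0.51 for H2-DMa and 0.80 ± 0.86 for H2-DMb1 (SE, edgeR adjusted p = 0.99995 for each). H2-DMb1 lies beside the close copy H2-DMb2, between which reads may be shared. The sum of both was 89.2, 13.2 and 20.8 CPM in KO and 25.1, 6.58, 35.95 and 25.4 CPM in WT, again with KO 1 highest and overlapping groups. The annotated span of H2-DMa overlaps Brd2 on the opposite strand, and that of Ciita overlaps Dexi. Brd2 had 730 to 2287 counts a library, against 25 to 180 for H2-DMa. Dexi had 12 to 44 counts a library, against 7 to 85 for Ciita. The sources used here give no strand setting for the counting, so tags of such partners cannot be told apart.

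Ciita (chromosome 16, 10480059 to 10528418, plus strand), the activator, was a low transcript. It stood at 16.5, 5.82 and 3.89 CPM in KO and 2.09, 1.57, 8.54 and 2.65 CPM in WT. WT 3 exceeded KO 2 and KO 3. The order of the libraries differed from that of its target H2-Aa, for which WT 4 was the highest WT library. For its target Cd74 the highest WT library was WT 3, as for Ciita. Over the 7 libraries, r of log2 CPM between Ciita and the class II chain and loading genes ran from 0.57 for H2-Aa to 0.79 for Cd74. Without KO 1 it ran from 0.19 for H2-DMa to 0.59 for Cd74, a description with no test. The Ciita value in WT 1 rested on 7 counts, with an exact 95% Poisson interval of 0.841 to 4.31 CPM. Like the other intervals here, it covers counting error only. Cd86 (chromosome 16, 36603869 to 36666081, minus strand), which encodes a ligand of CD28 on T cells, differed most of all between KO libraries. It stood at 50.7, 6.43 and 2.73 CPM in KO 1 to 3, against 9.56, 3.76, 7.75 and 2.65 CPM in WT. KO 2 and KO 3 lay inside the WT range. The log2 fold changes of 1.23 ± 0.81 for Ciita and 1.76 ± 0.92 for Cd86 (SE) had an edgeR adjusted p of 0.99995.

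Of the 8 genes other than Ly75, 0 passed the test and 0 reached an unadjusted p under 0.05. Across all 12506 genes tested, 0% passed and 154 had an unadjusted p under 0.05. DESeq2 and limma-voom also called 0 of the 8. All 8 had a log2 fold change above 0, with a median of 0.79, where the median of all genes tested was 0.01 and 51.4% of them lay above 0. The 8 are not independent of each other. Their 28 pairwise correlations of log2 CPM over the 7 libraries, a description with no test, ran from 0.40 to 0.99 with a median of 0.73, and without KO 1 from -0.85 to 0.97 with a median of 0.47.

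That median rested on KO 1. Without it, the median over the 8 genes was -0.25 and 3 of the 8 were above 0, namely H2-Aa with 0.37, Ciita with 0.38 and H2-DMa with 0.24. H2-DMb1 then had -1.02, Cd86 -0.38, H2-Eb1 -0.28, Cd74 -0.27 and H2-Ab1 -0.23. Among the libraries with the letter Y, which leave KO 1 alone against the 4 WT libraries, log2 fold changes ran from 1.30 for H2-Aa to 3.10 for Cd86, with a median of 1.84 and 0 genes called. In that fit the lone KO library is assumed to vary like the others, and the letter A holds KO libraries only, so it gives no within-letter value. KO 1 was the highest of the 7 libraries for 8 of the 8 genes, against 15.1% of all genes tested. WT 2 was the lowest for 6 of the 8, against 12.8% of all genes tested, the exceptions being H2-DMa, lowest in WT 1, and Cd86, lowest in WT 4.

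**Figure D2:**
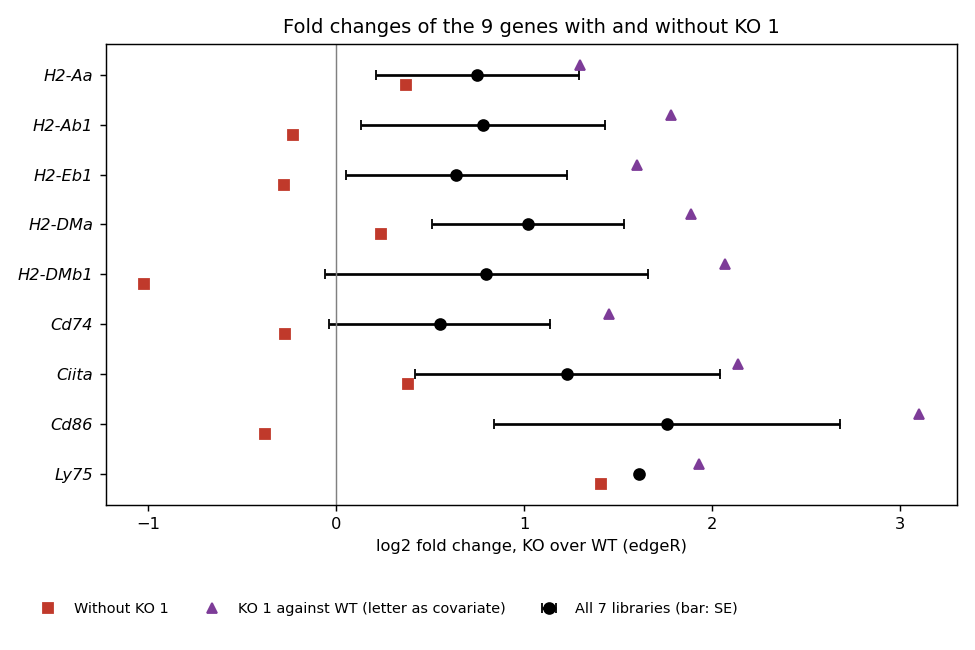
Log2 fold change of KO over WT for the 9 genes with all 7 libraries (black, bars are SE), without KO 1 (red squares) and for KO 1 against WT with the description letter as a covariate (purple triangles). Without KO 1, 5 of the genes lie below 0, while Ly75, whose direction follows from how it was chosen, has no error bar.

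The class II transcripts did not keep fixed proportions. The ratio of H2-Aa to H2-Ab1 tags was 1.17, 1.49 and 3.67 in KO 1 to 3, against 1.46, 1.79, 1.37 and 1.97 in WT, so that KO 3 had the most α chain tags per β chain tag. The ratio of H2-Aa to Cd74 was 4.54 in KO 3 and 3.84 in WT 4, and between 1.15 and 1.61 in the other 5 libraries. H2-Eb1 to H2-Ab1 was steadier, at 1.27, 1.26 and 1.57 in KO and 1.53, 1.88, 1.19 and 1.49 in WT. Such ratios compare libraries and not numbers of molecules, since the tag yield of each transcript is unknown.

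Markers of other cell types moved with the class II genes in some libraries. The 13 macrophage and monocyte markers, among them Adgre1, which encodes F4/80, and the complement gene C1qa, all had counts in every library. All had a higher mean in KO, with 0 called, where 51.4% of all genes tested had a log2 fold change above 0. Their summed level was 1756, 905 and 335 CPM in KO 1 to 3, against 673, 244, 634 and 719.9 CPM in WT. KO 1 was highest for 11 of the 13, against 15.1% of all genes tested. How far the higher KO means rested on KO 1 was not tested. H2-Aa, H2-Ab1, H2-Eb1 and Cd74 together were 1.31, 0.788 and 2.55 times that sum in KO 1 to 3, against 1.49, 1.06, 1.34 and 1.499 times in WT. Relative to these markers KO 1 was thus within the WT range, KO 2 was the lowest library and KO 3 the highest. Their part in the result was not tested.

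The 12 B cell markers summed to 511, 293 and 379 CPM in KO and 132, 433, 589 and 368 CPM in WT. The largest part of each sum was Ighm, at 261, 184 and 281 CPM in KO and 116, 319, 391 and 298 CPM in WT. Of the 12, 10 had a higher mean in KO, with 0 called. KO 1 was highest for 7 of the 12, against 15.1% of all genes tested. In WT 1, 6 of the 12 had 0 counts, among them Cd79a, Ms4a1 and Cd22, and H2-Aa stood at 293 CPM there. In WT 2, where H2-Aa, H2-Ab1, H2-Eb1 and Cd74 were at their lowest, B cell markers summed to 433 CPM, of which Ighm was 319 CPM. The part of B cells in the class II levels was not tested. The 12 dendritic cell markers were low, at 43.2, 39.5 and 17.1 CPM in KO and 28.7, 44.8, 63.0 and 28.3 CPM in WT, and 5 of the 12 had a higher mean in KO. Clec9a had 0 counts in all 7 libraries, and Zbtb46 at most 2 counts in any. Flt3, Ccr7, Itgae and Fscn1 were counted in every library, Flt3 from 6.43 to 16.5 CPM in KO and 7.15 to 22.2 CPM in WT. Clec10a reached 12.1 CPM in KO 1 and 13.1 CPM in WT 3. The 12 T lineage markers summed to 630, 798 and 1602 CPM in KO and 558, 1196, 887 and 1136 CPM in WT, with 8 of the 12 having a higher mean in KO. Of 7 markers of thymic epithelium, a tissue known for DEC-205, Epcam, Foxn1 and Krt5 had 0 counts in all 7 libraries, and the 7 summed to 35.6, 17.8 and 10.7 CPM in KO and 25.4, 10.5, 39.5 and 12.2 CPM in WT, with 2 of the 7 having a higher mean in KO. Most of that sum was Cd83, a gene also of activated dendritic and B cells and on the pathway list as well. Cd83 stood at 29.7, 16.2 and 8.76 CPM in KO and 13.4, 6.73, 34.2 and 6.88 CPM in WT. Psmb11 was counted in every library, with 4.08, 0.613 and 0.779 CPM in KO and 9.86, 1.25, 4.77 and 3.18 CPM in WT. Krt8 and Prss16 had at most 8 counts in any library.

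**Figure D3:**
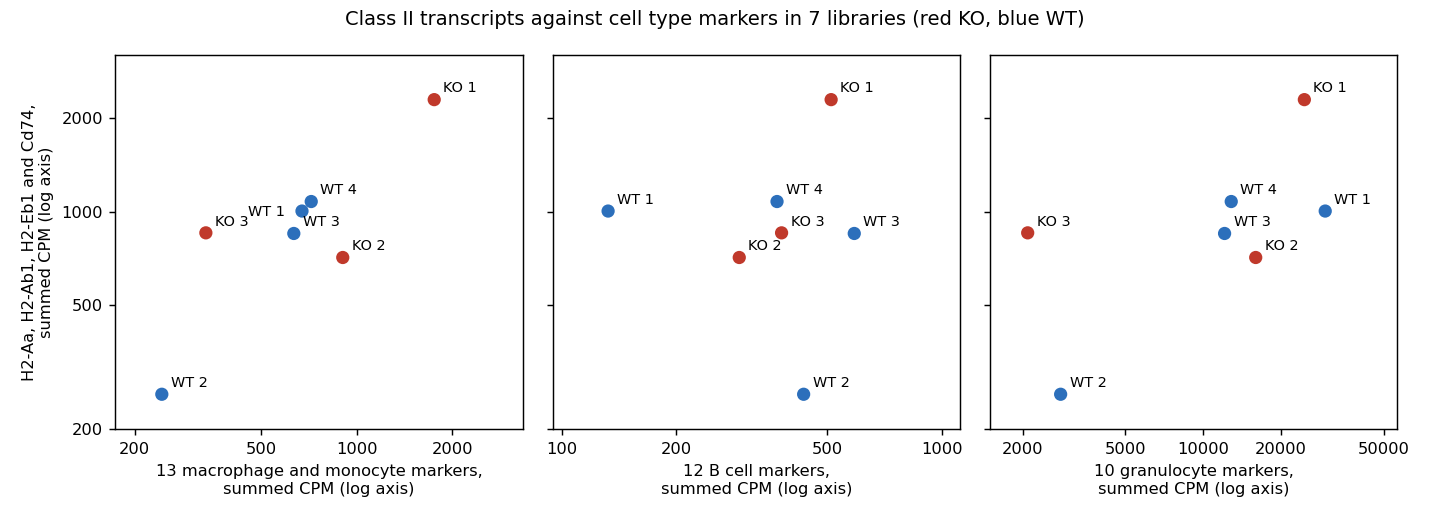
Summed level of H2-Aa, H2-Ab1, H2-Eb1 and Cd74 (vertical) against the summed level of macrophage and monocyte, B cell and granulocyte markers (horizontal), in CPM on log axes, with 1 point per library (red KO, blue WT). KO 1 is high and WT 2 low on the vertical axis in all panels, and WT 1 combines the fewest B cell marker tags with 1005 CPM of class II tags.

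Ly75 was the gene whose KO libraries all exceeded the WT libraries, which is the reason it was chosen. The receptor DEC-205 takes up ligands and delivers them to compartments where class II is loaded, and is best known on dendritic cells. Ly75 (chromosome 2, 60292103 to 60383303, minus strand) stood at 24.7, 23.6 and 10.9 CPM in KO 1 to 3, against 7.77, 4.70, 6.75 and 6.62 CPM in WT 1 to 4. KO 1 and KO 2 were close together, and KO 3 lay nearer to the WT libraries than to them. The lowest KO library was 1.404 times the highest WT library. The means were 19.7 ± 7.66 CPM in KO (SD, n = 3) and 6.46 ± 1.28 CPM in WT (SD, n = 4), with a ratio of 3.05 and a log2 fold change of 1.61. Of all genes tested, 1.57% had KO levels wholly above WT, and 3.13% had groups that did not overlap in either direction. The gene of the 9 closest to that condition without meeting it was H2-DMa, with a lowest KO level of 9.50 CPM and a highest WT level of 11.9 CPM.

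The Ly75 levels rested on 127, 77 and 56 counts in KO and 26, 30, 34 and 25 counts in WT. The exact 95% Poisson interval of KO 3, 8.24 to 14.2 CPM, overlapped that of WT 1, 5.07 to 11.4 CPM, while those of KO 1 and KO 2 began at 20.6 and 18.6 CPM, above every WT interval. These intervals leave out the spread between libraries, and Ly75 was chosen for this gap, so they do not test the difference between genotypes. The letter A and high Xist, shared by KO 2 and KO 3, went with 23.6 and 10.9 CPM of Ly75, and their part in the difference was not tested. Per tag of the 13 macrophage and monocyte markers the groups did overlap, with Ly75 at 0.0141, 0.0261 and 0.0325 in KO and 0.0115, 0.0193, 0.0106 and 0.00919 in WT.

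**Figure D4:**
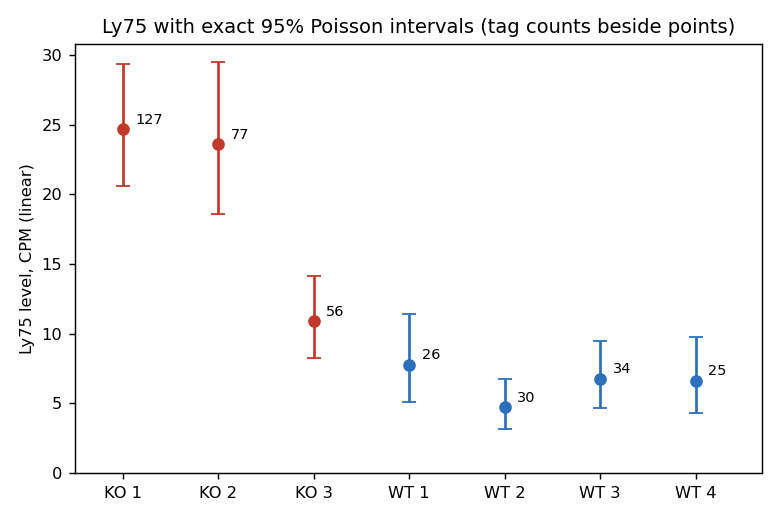
Ly75 level in CPM (linear axis) in the 3 KO libraries (red) and the 4 WT libraries (blue), with exact 95% Poisson intervals that cover counting error only and the tag count beside each point. The KO points lie between 10.9 and 24.7 CPM and the WT points between 4.70 and 7.77 CPM, and the intervals of KO 3 and WT 1 overlap.

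The gene downstream of Ly75 on the same strand, Cd302, begins 7615 bases beyond it and is known in human cells for transcripts that read through from LY75. Cd302 had 9, 16 and 0 counts in KO and 17, 7, 10 and 5 in WT. Its highest levels were 5.08 CPM in WT 1 and 4.90 CPM in KO 2, while Ly75 was highest in KO 1 and KO 2. The antisense gene Gm13571 inside the Ly75 span had 1 count in all.

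Of 30 other genes of the pathway, 27 passed the filter on low counts, and 0 passed the test in either direction. Of the 27, 16 had a log2 fold change above 0 and 11 below, with a median of 0.21 (0.01 for all genes tested). This direction too rested on KO 1, since the median was -0.15 without it, and 0.63 with the description letter as a covariate. H2-Ea-ps, H2-Eb2 and Cd209a were too low to test. Among those with the highest levels, Ctss, the cathepsin that trims the invariant chain, stood at 818, 478 and 105 CPM in KO and 439.8, 106, 328 and 290.2 CPM in WT, with a log2 fold change of 0.68 ± 0.66 (SE). KO 3 was the lowest of the 7 for Ctss, although it was second highest for H2-Aa. Ctsl, the related cathepsin of the thymus, stood at 175, 89.4 and 103 CPM in KO and 119, 102, 105 and 103 CPM in WT.

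Genes of the interferon-γ route, which induces Ciita, spread widely within both genotypes. The receptor gene Ifngr1 stood at 304, 287 and 77.9 CPM in KO and 216, 93.6, 153 and 59.3 CPM in WT, with a log2 fold change of 0.77 ± 0.54 (SE). Irf1, an interferon-induced transcription factor, stood at 324, 352 and 48.9 CPM in KO and 583, 62.2, 195 and 349 CPM in WT. For Irf1 the highest library was WT 1, where Ciita was at 2.09 CPM on 7 counts. The part of this route in the Ciita levels was not tested. Irf8, a factor of myeloid and B cells, ran from 58.8 to 84.6 CPM in KO and from 35.5 to 68.5 CPM in WT.

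Most of the named factors that bind the promoter module overlapped between genotypes. Nfyb, which binds the Y box, ran from 80.1 to 109 CPM in KO and from 71.0 to 93.5 CPM in WT, and Creb1, which binds the X2 part of the X box, from 67.0 to 155 CPM in KO and from 83.4 to 140.2 CPM in WT. A single gene of the 27 had an unadjusted p under 0.05. It was Rfxank, a subunit of the RFX complex at the X box, named here after its values were seen, with 2.53, 3.37 and 2.92 CPM in KO, against 4.48, 9.40, 10.7 and 6.62 CPM in WT (log2 fold change -1.41 ± 0.62, SE, edgeR adjusted p = 0.99995). Its KO levels lay below all WT levels, as for 1.57% of all genes tested, and rested on 11 to 15 counts each. Its partners overlapped between genotypes, Rfx5 with 11.5, 15.9 and 19.7 CPM in KO and 24.2, 24.9, 29.0 and 4.24 CPM in WT, and Rfxap with 7.78, 10.1 and 10.5 CPM in KO and 15.2, 13.5, 8.74 and 7.41 CPM in WT.

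The genes whose log2 CPM over the 7 libraries was most like the mean of H2-Aa, H2-Ab1, H2-Eb1 and Cd74, out of 8308 genes averaging 3 or more in log2 CPM, were Fam160a2, Ms4a6d, Zbtb17, Dynlt1a, Kpna1, Fam168b, Eif2ak2 and Abi3, with r of 0.987 down to 0.941. With KO 1 and WT 2 left out, r was 0.975 for Fam160a2, 0.913 for Fam168b, 0.815 for Eif2ak2 and 0.754 for Ms4a6d. It was 0.659 for Kpna1, 0.571 for Dynlt1a, 0.405 for Abi3 and 0.270 for Zbtb17, so that some of these likenesses rested on those libraries. Ms4a6d stood at 83.0, 21.1 and 16.2 CPM in KO and 27.5, 5.79, 26.6 and 23.3 CPM in WT. For Ly75 they were Arg1, Nudt18, Myo1g, Sap18, Htatip2, Tmem14c, Riok1 and Sptlc1, with r of 0.955 down to 0.931. With KO 1 and KO 2 left out, r ran from 0.927 for Myo1g to 0.561 for Tmem14c. Arg1, which encodes arginase 1, differed from Ly75 in KO 3, with 92.7, 68.9 and 20.3 CPM in KO and 18.5, 10.96, 22.6 and 20.9 CPM in WT. The libraries share depth and mixture differences, and these likenesses are a description.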

How the data were processed

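The authors deposited 1 table of whole-number counts per Ensembl mouse gene for 7 libraries. Per the labels' protocols, RNA was column purified and DNase treated, and libraries were made with a QuantSeq kit, which reads 3′ tags of polyA RNA. RSEM 1.2.3, DESeq2 and the mm10 build are named, per the submitters' processing notes, without saying what each did. Since RSEM estimates counts, the whole numbers may be rounded. The sources used here do not give the annotation release, the strand setting or the handling of multi-mapped reads.

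Of 51789 gene IDs, 51596 matched a symbol. Gene coordinates are from GENCODE M21 and promoters from RefSeq, both on GRCm38, the build of mm10, and 1-based. KO was compared with WT over all genes with edgeR 4.0.16 in R 4.3.3, using filterByExpr, TMM and the quasi-likelihood F test in its robust form. P-values were adjusted by Benjamini-Hochberg, and calls made at an adjusted p under 0.05. The 12506 genes kept held 99.6% of counts. A prior count of 2 was added for log2 CPM. Intervals are exact Poisson intervals at 95% and cover counting error only, since no molecular identifiers are named.

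Members, gene lists and markers were chosen with earlier results of these data known. Named besides the members are the pathway genes of highest mean CPM and the 8 genes most like each pattern, leaving out predicted, clone, pseudogene and immunoglobulin names; H2-DMb2, H2-Oa, H2-Ob, H2-Eb2, H2-Ea-ps, Cd302, Gm13571, Cd209a, Rfx5, Rfxap, Rfxank and Cd83 were added after their values were seen. Alternatives were DESeq2 1.42.0, limma-voom (limma 3.58.1), other scalings and filters, the replicate block, the description letter and leaving out libraries. Results that need items withheld for evaluation are not reported here.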

Additional observations from a re-analysis of the deposited data

Results flagged for a closer look

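H2-Ab1 in the 4 WT libraries stood out by the gap of its lowest sample. WT 2 was at 44.0 CPM and the other WT libraries between 179 and 217 CPM, and on the log2 scale the gap to the nearest took up 0.878 of the WT range, above the limit of Dixon's test for 4 samples. Of the 9 genes examined this way H2-Ab1 was the only one past the limit, and chance flags about 1 in 20 such groups. WT 2 was also the library with 2809 CPM of granulocyte markers and 244 CPM of macrophage and monocyte markers, the lowest of the WT libraries for both. Their part in the low value was not tested. The 3 KO libraries are too few for this check.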

How the results depend on the processing

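For the 8 genes other than Ly75, 72 fold changes under settings other than leaving out a single library all kept their direction. These settings were RLE and upper-quartile factors, no filter, 5 CPM in 3 libraries, DESeq2, limma-voom, the replicate block, the description letter, and WT 2 and KO 3 left out together, the last chosen after seeing the data. The count of called genes over the whole table was 1 with DESeq2 and 0 in the other settings, and 0 of the 8 genes and 0 of the pathway genes were called in any. Leaving out each library in turn gave log2 fold changes from -0.27 to 0.85 for Cd74, -0.38 to 2.23 for Cd86, -0.23 to 1.08 for H2-Ab1, -1.02 to 1.22 for H2-DMb1 and -0.28 to 0.94 for H2-Eb1, each lowest and below 0 without KO 1. The ranges were 0.37 to 1.11 for H2-Aa, 0.24 to 1.33 for H2-DMa, 0.38 to 2.06 for Ciita and 1.41 to 1.84 for Ly75, whose direction its choice fixes. Deviations from the group means of same-numbered KO and WT libraries had r = 0.349, -0.225 and -0.184 across genes. The highest r was 0.47, for KO 3 with WT 2, the libraries with the lowest granulocyte markers. These values cannot decide whether libraries were paired. The labels do not say that the numbers pair libraries, so the main fit does not pair them. With the replicate block, 0 genes were called and Cd86 had 0.62. Ciita, Cd86 and Ly75 rested on 7 to 261 counts a library, which limits their precision.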
